A study of Mus musculus with 12 samples.

Results

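The 9 genes described here hold the epidermis to the layer beneath it: Itga6, Itgb4, Dst, Plec, Col17a1, Col7a1, Lama3, Lamb3 and Lama5. They were taken by name from a count table of 49492 genes, and all 9 were present and passed the filter on low counts in every comparison. Their peaks of N6-methyladenosine (m6A) were found by gene name in a peak table, 69 of its 42989 peaks. The samples were mouse skin labelled UV (3 samples) or control (3 samples), and each sample gave an IP library of RNA pulled down with an antibody to m6A and an input library of RNA before the pull-down, 12 libraries in all. The sources used here give no strain, sex or age of the mice and no kind, dose or timing of UV. Since the labels do not say that the samples were separate animals, the p-values measure the spread between these samples, which may be technical.

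Hemidesmosomes are the rivets of the basal keratinocyte. Integrin alpha-6 (Itga6) and beta-4 (Itgb4) form 1 receptor that crosses the basal membrane of the cell and binds laminin outside it, and collagen XVII (Col17a1) crosses the membrane beside it. Inside the cell, plectin (Plec) and the epithelial form of dystonin (Dst, also called BPAG1) tie this receptor to the keratin filaments. Outside, laminin-332, which holds the chains of Lama3 and Lamb3, fills the gap to the basement membrane, where laminin alpha-5 (Lama5) also lies, and collagen VII (Col7a1) forms the anchoring fibrils that reach into the dermis. In humans, loss of most of these genes causes forms of epidermolysis bullosa, in which the skin blisters on slight friction. m6A is a methyl mark that a nuclear enzyme complex places on adenosines of mRNA, mostly in long exons and near stop codons, and it is known to affect how long an mRNA lasts.

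Each library held between 24126662 and 92163619 reads in genes. Levels are given as CPM, reads of a gene scaled to the size of its library with TMM, which sets the average gene to no change. The input libraries held RNA of the whole skin: summed over the basal keratinocyte markers Krt5, Krt14, Krt15 and Trp63, the level was 9122 to 13730 CPM in UV skin and 4496 to 9278 CPM in control skin. Summed over 16 skeletal muscle markers it was 6144 to 16950 CPM in UV skin and 13740 to 31030 CPM in control skin. No marker of either list was at 0. Control sample 2 stood apart, with the highest muscle sum and the lowest basal keratinocyte sum, and its input library was the shallowest. In bulk skin, fewer cells of a type and less RNA per cell cannot be told apart.

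Per kilobase of merged exon, the members' mean input levels spanned a wide range and stood in 1 order in both conditions, with neighbours that overlapped in places. Without the division by length the ranks differed between conditions: Itgb4 was at rank 4 of 9 in UV skin and 7 in control skin, Plec came after Dst in UV skin and before it in control skin, and Lama5 after Lamb3 in UV skin and before it in control skin. Col17a1 was the highest, at 141 ± 13.4 CPM per kilobase in UV skin and 112 ± 21.5 in control skin (SD, n = 3), where its range overlapped that of Plec. Plec followed, at 94.3 to 107 CPM per kilobase in UV skin and 85.4 to 93.7 in control skin, and then Dst, at 47.6 ± 4.85 in UV skin and 35.5 ± 0.67 in control skin. The top of this order thus held the genes of the transmembrane collagen and of the linkers to keratin. The order rests on the merged lengths, which pool all forms of a gene. For Dst the merged length was 41155 bases, and 5 peaks on 9.57% of it held 41.3% of the gene's reads in UV input libraries. The order of single forms was not tested. Itgb4 lay at 31.3 ± 4.70 CPM per kilobase in UV skin, above the range of the next gene, and at 15.3 ± 2.28 in control skin, where its range overlapped that of Col7a1. Col7a1, Itga6 and Lama3 came next with overlapping neighbours in both conditions. Lamb3 and Lama5 were the lowest, at 8.07 ± 0.93 and 4.40 ± 0.52 CPM per kilobase in UV skin, where their ranges did not overlap, and at 6.32 ± 1.08 and 5.87 ± 0.80 in control skin, where they did.

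Itgb4 was higher in UV skin, and it was the 1 member of 9 whose transcript level changed by the test across all genes. Its input level was 251, 222 and 185 CPM in the 3 UV samples, against 111, 89.5 and 121 CPM in the 3 control samples. Every UV sample lay above every control sample. The log2 fold change was 1.03 (SE 0.14; 95% confidence interval 0.71 to 1.36), a 2.05-fold difference, with an adjusted p of 0.00863 by edgeR's quasi-likelihood test with Benjamini-Hochberg adjustment over 24099 genes. Of all genes tested, 3.02% were called higher and 2.81% lower, beside 1 of 9 members higher and 0 of 9 lower. With library size alone in place of TMM, the share of calls that were higher was 30.9%, against 51.9% with TMM, and Itgb4 was still called, at a log2 change of 0.94. Without control sample 2 the log2 change of Itgb4 was 0.92 (edgeR adjusted p = 0.0119). In these files Itgb4 (chr11:115974709-116008412 on the plus strand, GRCm38) shares 537 exon bases, 7.66% of its length, with the antisense gene B230344G16Rik, and the sources used here do not say whether reads were counted by strand.

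Itga6, the partner of Itgb4 in the receptor, did not pass the test. The Itga6 level was 162, 144 and 123 CPM in UV skin, against 111, 98.8 and 141 CPM in control skin. The groups overlapped, and the log2 change was 0.29 (SE 0.15; edgeR adjusted p = 0.262). The ratio of Itgb4 to Itga6 per kilobase was therefore higher in UV skin. Its log2 value was 1.00, 0.99 and 0.96 in the UV samples, against 0.37, 0.22 and 0.14 in the control samples. This difference of 0.74 had a two-sided exact permutation p of 0.1, the smallest that 3 samples against 3 allow. Against Col17a1 the ratio of Itgb4 lay higher in every UV sample than in every control sample, in input (difference 0.70) and in IP (0.72), each at the smallest exact permutation p of 0.1. Set against the 4 basal keratinocyte markers, the ratio of Itgb4 gave a mixed picture. In input it lay higher in every UV sample against Krt15 (difference 1.74), Trp63 (0.92) and Krt5 (0.47), each again at the exact permutation p of 0.1. Against Krt14 the groups overlapped, with a difference of −0.11 (exact permutation p = 0.9), since Krt14 had a log2 change of 1.02, about that of Itgb4. In IP the groups overlapped against Krt14 (−0.19, exact permutation p = 0.7) and Krt5 (0.37, exact permutation p = 0.2), and did not overlap against Krt15 and Trp63. All 18 ratios computed between genes, in input and in IP libraries, had Benjamini-Hochberg adjusted p-values of 0.15 or more. The ratios were chosen after their values were seen, with the results of Itgb4 and Krt15 already known. Their p-values are thus a description and not a test.

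**Figure D1:**
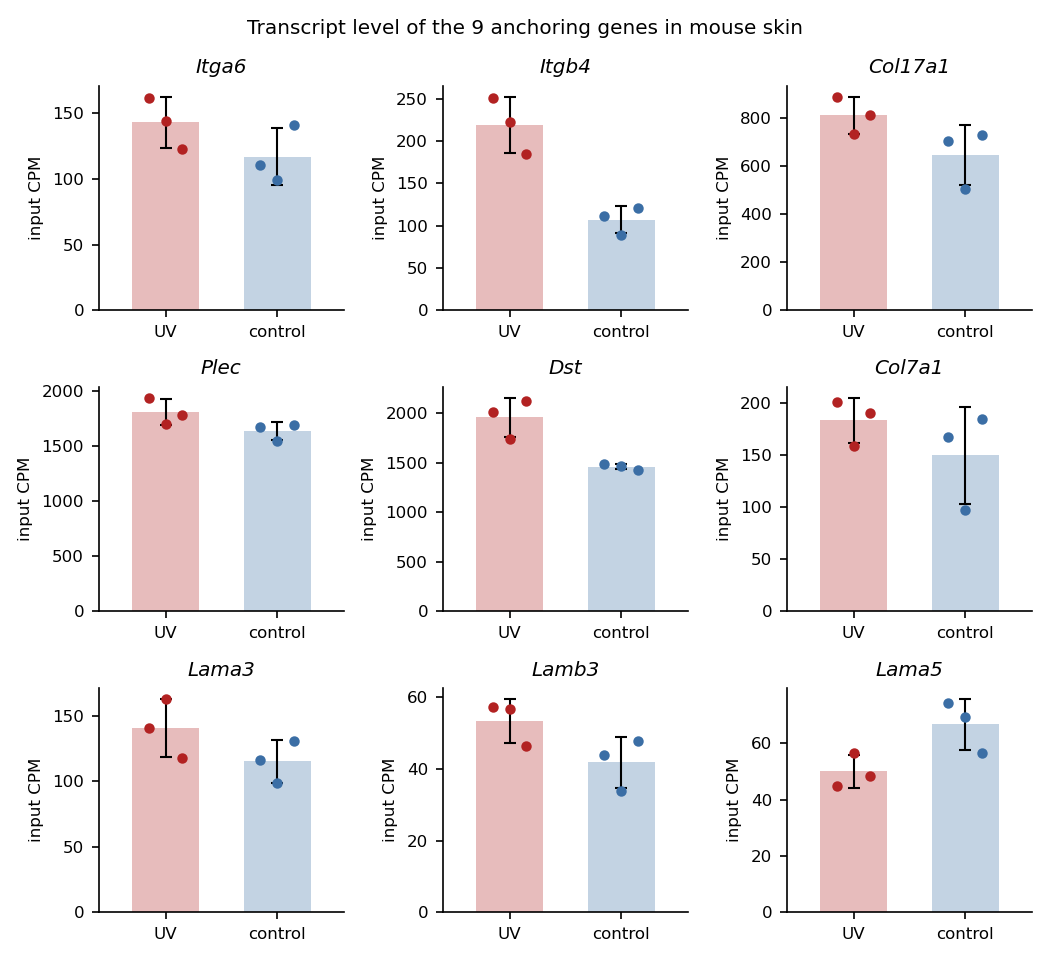
Input level (CPM, linear axes from 0) of each member in the 3 UV and 3 control samples. Points are samples, bars the means and error bars the SD (n = 3). The UV points of Itgb4, Dst, Plec and Col17a1 all lie above the control points, and those of Lama5 all lie below.

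The 3 other hemidesmosome genes lay higher in every UV sample than in every control sample, by smaller amounts that did not pass the test. Dst was at 2011, 1738 and 2126 CPM in UV skin, against 1484, 1469 and 1431 CPM in control skin. Its log2 change was 0.42 (SE 0.11; edgeR adjusted p = 0.0581). DESeq2 called Dst higher (log2 change 0.44, adjusted p = 0.00156), and so did edgeR without the filter on low counts (adjusted p = 0.0157). The call on Dst thus rests on the tool and the filter.

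Col17a1 was at 888, 733 and 814 CPM in UV skin, against 706, 505 and 732 CPM in control skin. The lowest UV sample exceeded the highest control sample by a narrow margin. The log2 change was 0.33 (SE 0.15; edgeR adjusted p = 0.221), and 0.17 without control sample 2. Plec was at 1943, 1708 and 1785 CPM in UV skin, against 1680, 1546 and 1697 CPM in control skin, a log2 change of 0.14 (SE 0.10; edgeR adjusted p = 0.421). Groups that do not overlap are common in these data: in 15.5% of all genes tested every UV sample lay above every control sample, and in 15.5% every one lay below.

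Dst, counted over all its forms, was higher in UV skin relative to Plec. The log2 ratio of Plec to Dst per kilobase was 1.13, 1.16 and 0.93 in the UV input libraries, against 1.36, 1.26 and 1.43 in the control input libraries. The groups did not overlap (two-sided exact permutation p = 0.1). In the IP libraries the ratio was 1.55, 1.68 and 1.44 in UV skin, against 1.71, 1.87 and 1.80 in control skin, again without overlap.

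Among the genes of the matrix side, Lama3, Lamb3 and Col7a1 did not pass the test. Lama3 was at 141, 163 and 118 CPM in UV skin, against 116, 98.6 and 131 CPM in control skin. Lamb3 was at 57.3, 56.5 and 46.3 CPM in UV skin, against 43.7, 33.8 and 47.7 CPM in control skin. Both pairs of groups overlapped, with log2 changes of 0.29 (edgeR adjusted p = 0.244) and 0.35 (edgeR adjusted p = 0.163). The ratio of Lama3 to Lamb3 overlapped between UV and control skin. Col7a1 was at 201, 159 and 190 CPM in UV skin, against 168, 97.2 and 185 CPM in control skin. Control sample 2 was the low one, and the log2 change of Col7a1 was 0.29 with it (edgeR adjusted p = 0.439) and 0.06 without it.

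Lama5 was the 1 member whose UV samples all lay below the control samples. It had 45.0, 56.6 and 48.5 CPM in UV skin, against 74.5, 69.2 and 56.8 CPM in control skin. The log2 change was −0.42 (SE 0.12; 95% confidence interval −0.70 to −0.13; edgeR adjusted p = 0.0857). DESeq2 called it lower (adjusted p = 0.0459), as did edgeR without control sample 3 (log2 change −0.52, adjusted p = 0.0327). Set against Lamb3, the log2 ratio of Lama5 per kilobase was −1.13, −0.78 and −0.72 in UV skin, against −0.02, 0.25 and −0.53 in control skin, with no overlap (two-sided exact permutation p = 0.1). In IP libraries this ratio overlapped, at −2.13, −1.63 and −1.67 in UV skin, against −1.12, −0.68 and −1.88 in control skin (exact permutation p = 0.3).

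The other genes of the same structures gave the context. Of 20 further basement membrane genes, 0 were called higher and 3 lower: Col4a6 (log2 change −0.91, edgeR adjusted p = 0.0176) and Col4a5 (−0.63, edgeR adjusted p = 0.0225), which encode collagen IV chains found in the basement membrane of the skin, and Hspg2 (−0.43, edgeR adjusted p = 0.0261), which encodes perlecan. That all 3 are matrix genes follows from the choice of the list, and the result of Hspg2 was known when the list was written. Over all genes 2.81% were called lower. The median log2 change of the list was −0.19, against −0.02 over all genes, and its count of lower calls ranged from 0 to 5 when 1 sample was left out: 0 without UV sample 1, UV sample 2 or control sample 1, 1 without UV sample 3, and 5 without control sample 3. Fibroblast markers were lower in the same comparison, with 3 of 7 called lower, led by Dcn (−0.77, edgeR adjusted p = 0.0133). That count was 0 without UV sample 1 or UV sample 3, 1 without UV sample 2 or control sample 1, and 5 by DESeq2. Their summed level was 6017 to 7066 CPM in UV skin and 8552 to 9498 CPM in control skin, with no marker at 0, and their part in these changes was not tested.

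On the epithelial side, 0 of 11 further hemidesmosome genes, among them Cd151, Krt5 and Krt14, were called in either direction, with a median log2 change of 0.03. Without control sample 3, 2 of these 11 were called higher, as they were without the filter on low counts, and DESeq2 called 1 higher and 1 lower. The 2 were Krt5 and Krt14 under both of those edgeR settings, and by DESeq2 the gene called higher was Krt5 (DESeq2 adjusted p = 0.0249). Of 17 measured genes of the desmosome, the junction between keratinocytes, and of the plakin family that Dst and Plec belong to, 0 were called in either direction, yet their median log2 change was 0.41. The median of the 9 members was 0.29. DESeq2 called 7 of these 17 genes higher, as did edgeR without the filter on low counts, and edgeR called 5 higher without control sample 3. Of 9 proliferation genes 0 were called (median 0.21). Of the 4 basal keratinocyte markers, Krt15 was lower (log2 change −0.72, edgeR adjusted p = 0.0361) and the others were not called, although Krt14 had a log2 change of 1.02 (edgeR adjusted p = 0.149). The call on Krt15 was lost with the replicate block of UV and control by number and without any 1 of the samples other than control sample 3. The basal keratinocyte sum was higher in UV samples 1 and 2 than in all control samples, while UV sample 3, at 9122 CPM, lay just under control sample 3, at 9278 CPM. Of 7 markers of stressed keratinocytes 0 were called, yet their median log2 change was 0.76 and that of Krt6a, a keratin of wounded epidermis, was 2.11 (edgeR adjusted p = 0.132), and 5 of the 7 were called higher without control sample 3. Their summed level was 4761 to 11140 CPM in UV skin and 957 to 5174 CPM in control skin, with no marker at 0. Control sample 3 had the 5174 CPM, against 1957 and 957 CPM in the other control samples. Without control sample 3, edgeR calls over all genes rose from 1404 to 2100. Of 9 endothelial markers 0 were called (median log2 change 0.34), with 2 higher without control sample 3 and 1 by DESeq2 or without the filter. Endothelial markers summed to 133 to 162 CPM in UV skin and 114 to 118 CPM in control skin. Of 7 Schwann cell markers 0 were called (median 0.06). The part of these marker lists in the change of Itgb4 was not tested beyond the ratios to the basal markers given above.

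**Figure D2:**
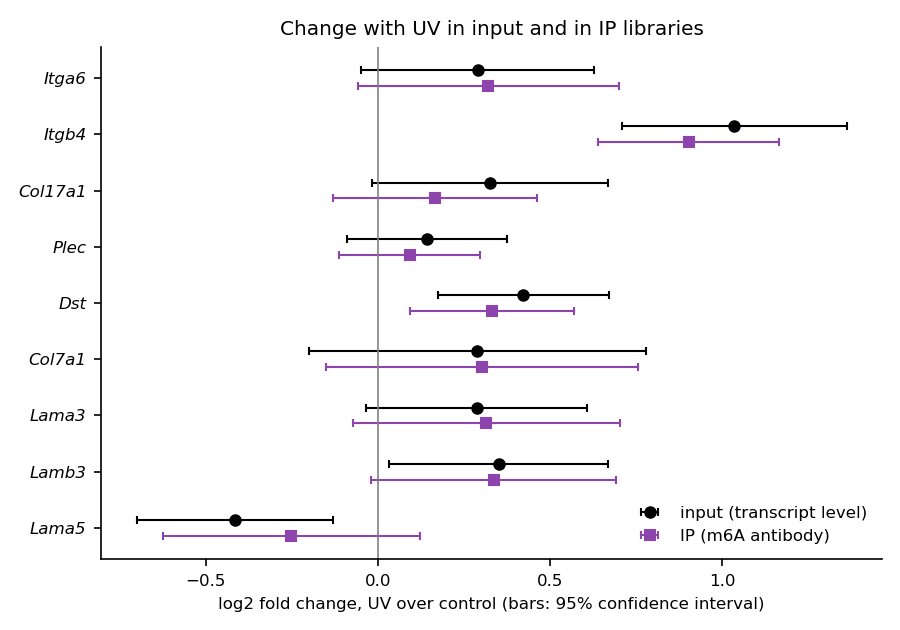
Log2 fold change of each member, UV over control, in input libraries (circles) and IP libraries (squares), with 95% confidence intervals from edgeR. The intervals of Itgb4, 0.71 to 1.36 in input and 0.64 to 1.17 in IP, lie farthest from 0, and Lama5 is the 1 member below 0 in both.

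The gene whose level over the 6 input libraries was most like that of Itgb4 was Plin2, which encodes a coat protein of lipid droplets. Likeness was measured as the root mean square difference of centred log2 CPM, over 10702 genes with a mean of at least 5 CPM, and was 0.05 for Plin2. Mcam, Cidea, Tnfrsf18 and Mybl1 came next, at 0.07 to 0.08. Each of the 5 was itself called higher in UV skin, with log2 changes of 0.94 to 1.01. This follows from how they were picked, since a gene close to Itgb4 over these same libraries shares its change. The nearest genes to the other members were Anxa2 to Itga6, Sept4 to Dst, Lrsam1 to Plec, Mpdu1 to Col17a1, Ctsa to Col7a1, Coch to Lama3, Tnk1 to Lamb3 and Hmcn1 to Lama5. No member was the nearest gene of another member.

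The amount of each transcript in the IP libraries told much the same as the input. Itgb4 was the 1 member called, higher in UV skin at 97.7, 83.0 and 71.6 CPM, against 45.2, 43.3 and 46.5 CPM in control skin. Its log2 change in IP was 0.90 (SE 0.12; edgeR adjusted p = 0.0106). Of all genes, 1.45% were called higher and 1.05% lower in this comparison. The call was lost without UV sample 2 (adjusted p = 0.0528) and without control sample 1 (adjusted p = 0.061), with log2 changes of 0.92 and 0.91. The other 8 members were not called. Dst had 2488, 2196 and 2624 CPM in the UV IP libraries, against 2055, 1862 and 1894 CPM in the control IP libraries, and a log2 change of 0.33 (edgeR adjusted p = 0.137). Its IP groups did not overlap, nor did those of Plec, whereas those of Col17a1 and Lama5 did. In 12.8% of all genes tested every UV IP library lay above every control IP library, and in 11.8% every one lay below.

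IP over input, the measure of m6A enrichment relative to the average gene, set the members far apart. Plec and Dst were enriched and Itgb4 and Lama5 depleted in both conditions. The log2 ratio of Plec was 0.93, 1.07 and 1.01 in the UV samples and 1.01, 1.17 and 0.99 in the control samples. For Dst it was 0.51, 0.55 and 0.50 in the UV samples and 0.66, 0.56 and 0.62 in the control samples. Both genes thus had more of their RNA bound by the antibody than the average gene had, by 2.00-fold for Plec and 1.43-fold for Dst in UV skin. The Dst value is of the whole gene, and its neuronal, muscle and epithelial forms were not told apart.

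Itgb4 had a log2 IP over input of −1.16, −1.21 and −1.17 in the UV samples and −1.11, −0.83 and −1.16 in the control samples. Lama5 had −1.06, −1.04 and −1.05 in the UV samples and −1.22, −1.08 and −1.38 in the control samples. These 2 genes stood among the lowest genes: of the 11931 genes with a mean of at least 5 CPM, Itgb4 was at percentile 3.64 in UV skin and 5.29 in control skin, and Lama5 at 5.20 and 3.39. Plec was at percentile 91.8 in UV skin and 92.1 in control skin. The 2 chains of the integrin differed, since Itga6 was at percentile 35.8 in UV skin and 33.7 in control skin.

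By the test, 2 of 9 members were called higher in IP than in input in UV skin (Plec and Dst) and 2 lower (Itgb4 and Lama5). In control skin the same genes were called, and Lama3 was called lower as well. Calls of this kind are common, since 24.7% of all genes were higher and 24.3% lower in UV skin, and 24.6% and 25.8% in control skin. With library size alone the share of calls that were higher was 38.0% in UV skin and 30.3% in control skin, against 50.4% and 48.8% with TMM, as the median of all genes shifted by −0.15 and −0.25. The fitted log2 values in UV skin were 1.00 for Plec (edgeR adjusted p = 9.21e-07), 0.52 for Dst (0.000669), −1.18 for Itgb4 (1.86e-05) and −1.05 for Lama5 (0.000128), the values in parentheses being edgeR adjusted p-values. In control skin they were 1.05 for Plec, 0.61 for Dst, −1.05 for Itgb4, −1.21 for Lama5 and −0.45 for Lama3. The Lama3 value had an edgeR adjusted p of 0.0486 in control skin and 0.0616 in UV skin, where its log2 value was −0.42. The control call was lost when any of UV sample 1, UV sample 2 or the 3 control samples was left out (adjusted p of 0.0524 to 0.130).

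The IP and input library of a sample share that sample's RNA, and fitting each sample as a block made further calls. Under it Col17a1 and Col7a1 were also higher in IP, and Itga6 and Lama3 also lower, in both conditions. The fold sizes were small: in UV skin the log2 values with the block were 0.11 for Col17a1, 0.27 for Col7a1, −0.21 for Itga6 and −0.42 for Lama3. In control skin they were 0.28, 0.27, −0.23 and −0.45. Lamb3 was not called in either condition (edgeR adjusted p of 0.0521 in UV skin and 0.111 in control skin with the block). That made 4 members higher and 4 lower in each condition, where 60.5% of all genes were called in either direction in UV skin and 61.1% in control skin.

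**Figure D3:**
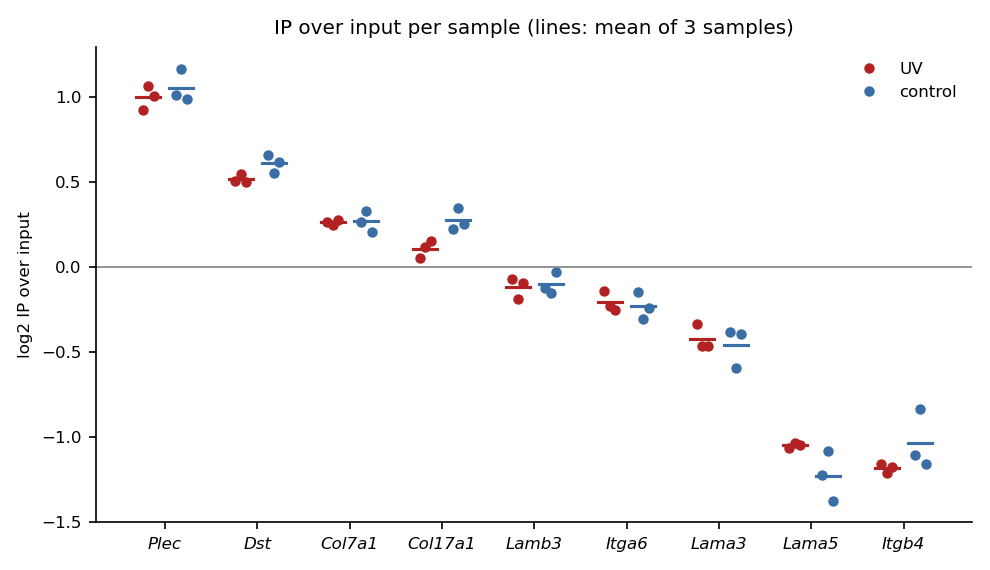
Log2 IP over input of each member in the 3 UV samples (left of each pair) and 3 control samples (right), with lines at the means. 0 is the average gene. In all 6 samples Plec, Dst, Col7a1 and Col17a1 lie above 0, and Itgb4, Lama5, Lama3, Itga6 and Lamb3 below it. The spread between samples is small beside the distance between Plec and Itgb4.

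The members differ in how their exons are built, and enrichment ran along with it for some of them. Merged over transcripts, the longest exon of Plec has 7412 bases, 40.9% of the exon length of the gene, and that of Dst has 6109 bases. The 5 Plec peaks called in UV skin and mainly in its longest exon came to 12.5% of Plec reads in UV IP libraries. In UV input libraries they came to 10.1%, and the deepest Plec peak was not among them. The longest exons of Itgb4, Lama3 and Lama5 have 499, 496 and 392 bases. These 3 are also the members with no peak in the peak table and the members with the lowest IP over input. Col7a1 has 116 merged exons of at most 480 bases and yet a log2 IP over input of 0.27 in UV skin and 0.26 in control skin, and it has peaks. Among Itga6, Lamb3 and Col17a1 the order ran the other way. Their longest exons have 2563, 1240 and 935 bases. Their log2 IP over input was −0.20, −0.12 and 0.11 in UV skin, and −0.23, −0.10 and 0.27 in control skin.

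Across genes, median enrichment was higher where the longest exon was longer. Among 1095 genes with a longest exon under 500 bases, the median log2 IP over input was −0.29 in UV skin and −0.29 in control skin, and 34.1% had a peak. Among 7695 genes with 500 to under 3000 bases it was 0.04 in UV skin and 0.06 in control skin, and 75.1% had a peak. Among 3141 genes with 3000 bases or more it was 0.17 in UV skin and 0.19 in control skin, and 87.5% had a peak. Itgb4 and Lama5 thus lay well below the median of genes with short exons, and Plec well above that of genes with long ones. Other properties of these genes that move with exon length were not tested.

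**Figure D4:**
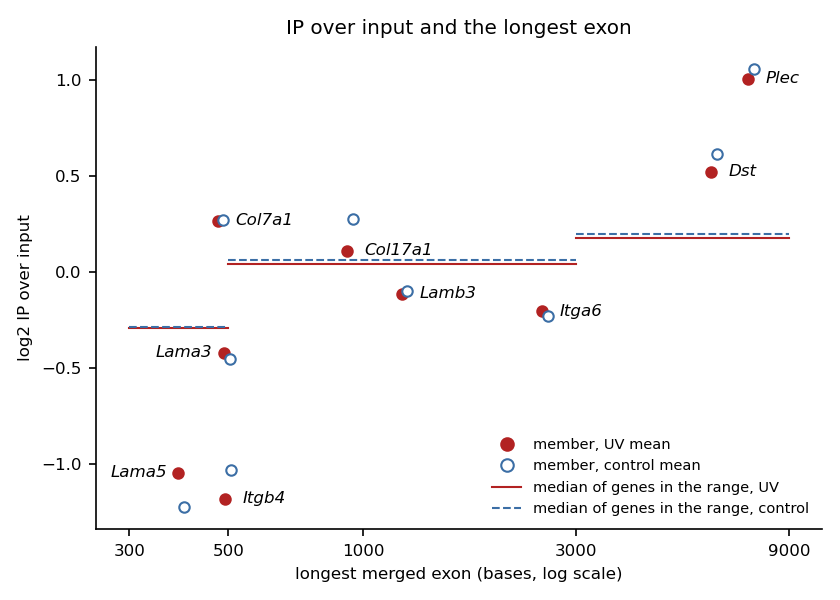
Mean log2 IP over input of each member in UV skin (filled) and control skin (open, n = 3 each) against the length of its longest merged exon in bases (log axis). Horizontal lines are medians over the genes of each length range (solid UV, dashed control). The 3 members without a peak (Lama3, Lama5 and Itgb4) sit at the lower left and Plec and Dst at the upper right.

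Each peak was listed under UV skin or under control skin, and the sources used here do not say how the samples were pooled for calling. Of the 69 peaks of the members, 38 were called in UV skin and 31 in control skin. Dst had 21 and 17, Plec 9 and 11, Col17a1 3 and 2, and Itga6 1 and 1, in UV and in control skin. Col7a1 and Lamb3 had 2 peaks each in UV skin and none listed in control skin. By position, 31 of 31 control peaks met a UV peak by at least 1 base, while 25 of 38 UV peaks met a control peak. Of all genes tested 48.7% have a peak, and of those with a mean of at least 5 CPM 74.6%.

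Reads at the peaks were tested in all 12 libraries whichever arm had called them, and 68 of the 69 peaks had enough reads. In the arm that called a peak, higher IP than input was largely fixed by the calling, which used these same samples. In UV skin 67 of 68 were higher in IP than in input, and in control skin 65 of 68, against 93.3% and 87.8% of all 41273 peaks tested. None was lower in either condition, against 0.472% and 0.436% of all peaks. Their median log2 IP over input was 1.04 in UV skin and 1.05 in control skin, below the 1.33 and 1.23 of all peaks. The peaks of Col7a1 and Lamb3, called in UV skin alone, were enriched in control skin too. For Col7a1 the 2 peaks had log2 values of 1.14 and 0.99 in UV skin and 1.12 and 0.91 in control skin. The Lamb3 peak near the end of the gene had 1.23 in UV skin and 1.09 in control skin. These values take the average gene as 0: with TMM computed over the peaks, which sets the average peak to 0 by construction, 4 of the 68 peaks were called higher and 16 lower in UV skin, and 1 higher and 20 lower in control skin.

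Most of the antibody-bound RNA of Plec lay in 1 region. The peak at chr15:76177214-76182946 (GRCm38; Plec is on the minus strand) covers exon 45 of 46, part of the last exon and a few bases of another, and it held 741254 IP reads over the 6 IP libraries. It makes up 25.3% of the exon length of Plec. Its reads came to 76.1% of the gene's reads in UV IP libraries, 76.7% in control IP libraries, 63.8% in UV input libraries and 63.8% in control input libraries (means of 3). Reads of Plec were thus concentrated there even before the pull-down. The log2 IP over input of this peak was 1.16, 1.34 and 1.27 in the UV samples and 1.27, 1.45 and 1.25 in the control samples. All 9 peaks called in UV skin together covered 53.0% of the exon length and came to 91.2% of the gene's reads in UV IP libraries.

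Dst is a very long gene on chromosome 1 (chr1:33908225-34308661) and makes neuronal, muscle and epithelial forms from different starts and ends. The RefSeq promoter table (GRCm38.p6) holds 2 Dst starts, both inside the gene, at positions 34011595 and 34160260, and all 38 Dst peaks lie downstream of both. The 250 bases before the second start, on the plus strand, are shown because it is the one nearer to the peaks, at chr1:34160010-34160259. They hold no GGACT, a common form of the m6A consensus, in the direction of transcription, whereas the window of the other start holds 1, which begins 103 bases before that start. Bases before a start are not part of the RNA made from it, so these letters do not bear on m6A of that RNA.
Dst second start, upstream: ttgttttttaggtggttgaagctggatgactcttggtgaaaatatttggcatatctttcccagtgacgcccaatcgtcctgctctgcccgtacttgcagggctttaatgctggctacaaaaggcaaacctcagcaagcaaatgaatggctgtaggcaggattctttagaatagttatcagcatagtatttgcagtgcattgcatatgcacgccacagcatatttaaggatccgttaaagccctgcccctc

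In Dst, 5 peaks called in UV skin lay mainly in the longest exon, number 36 of 106. They cover 9.57% of the exon length of Dst, and their reads came to 59.6% ± 0.46 of the gene's reads in UV IP libraries and 57.6% ± 1.21 in control IP libraries (SD, n = 3). In input libraries the share was 41.3% ± 0.46 in UV skin and 37.7% ± 3.21 in control skin. The deepest of them, chr1:34174740-34178729, held 272970 IP reads. Its log2 IP over input was 1.00, 1.10 and 1.03 in the UV samples and 1.28, 1.42 and 1.29 in the control samples, with no overlap. In input libraries this region had 531, 447 and 551 CPM in UV skin, against 354, 283 and 327 CPM in control skin. In IP libraries it had 1066, 961 and 1123 CPM in UV skin, against 857, 758 and 800 CPM in control skin. Both were higher in UV skin, input by the larger factor.

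The change of IP over input at this Dst peak was −0.28 on the log2 scale (SE 0.15; 95% confidence interval −0.60 to 0.03; edgeR adjusted p = 0.640), so it was not called. With the sample as a block, the change was −0.29 (edgeR adjusted p = 0.0288), and that of the overlapping peak called in control skin, chr1:34174206-34178159, was −0.34 (edgeR adjusted p = 0.0168). These 2 peaks share a region and count as 1 place. With the block 0.596% of all peaks were called lower and 0.383% higher. The authors' deposited table gives the 2 peaks log2 values of −0.28 and −0.34, with an FDR of 0.999 for the first.

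Col17a1 (on the minus strand) was enriched at its 5′ end. The peak called in control skin at chr19:47691855-47692094 lies within exon 1 and held 61766 IP reads. Its reads came to 27.3% of the gene's reads in UV IP libraries and 28.3% in control IP libraries, on 4.16% of the exon length, against 12.9% in UV input libraries and 13.8% in control input libraries. The log2 IP over input was 1.19, 1.18 and 1.21 in the UV samples and 1.13, 1.45 and 1.35 in the control samples. The fitted value was 1.19 in UV skin and 1.29 in control skin, against 0.11 and 0.27 for the gene as a whole. The peak called there in UV skin reaches from this exon over 2 introns, with a log2 value of 0.98 in UV skin and 1.01 in control skin.

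The first exon of Col17a1 carries a GGACT, and so does the start of Col7a1, where no peak was listed. RefSeq promoter windows of 300 bases, from 250 before to 50 after each start, were matched for 5 members (Dst, Lamb3, Lama5, Col7a1 and Col17a1). The 30 bases around GGACT after the start are shown for both collagens, in the direction of transcription with the motif in capitals, to set a site within a peak beside one outside. The motif begins at position 16 from the start of Col17a1 (chr19:47692010-47692039, minus strand, all 30 bases inside the peak) and at position 11 from that of Col7a1 (chr9:108953584-108953613, plus strand, 0 bases in a peak), both in GRCm38.p6.
Col17a1: gcacctttgtcaGGACTtgttttttgaagg
Col7a1: tcagtgccggcaGGACTtgctgcggcgcgg
Of 32851 such windows in RefSeq, 5.76% hold GGACT in the 50 bases after the start and 26.1% anywhere on the transcribed strand, 45.5% on either strand. A match is a description of the letters, not of a methylated base.

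Itga6 had its peak in the last exon. The peak called in UV skin, chr2:71855874-71856383, is 5.65% of the exon length and came to 34.5% of the gene's reads in UV IP libraries and 34.6% in control IP libraries, against 16.6% to 17.5% in UV input libraries and 17.7% to 18.6% in control input libraries. Its log2 IP over input was 0.94, 0.76 and 0.74 in the UV samples and 0.80, 0.60 and 0.73 in the control samples. The peak was thus enriched while the gene as a whole lay just under 0. The 2 Col7a1 peaks, at 48.9% and 79.2% of the transcript's length, came to 49.1% of the gene's reads in UV IP libraries and 48.5% in control IP libraries, on 9.81% of the exon length. Of the 2 Lamb3 peaks, 1 had only 46 IP reads and could not be tested, and the other, in the last exon, came to 11.1% of the gene's reads in UV IP libraries and 10.1% in control IP libraries.

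**Figure D5:**
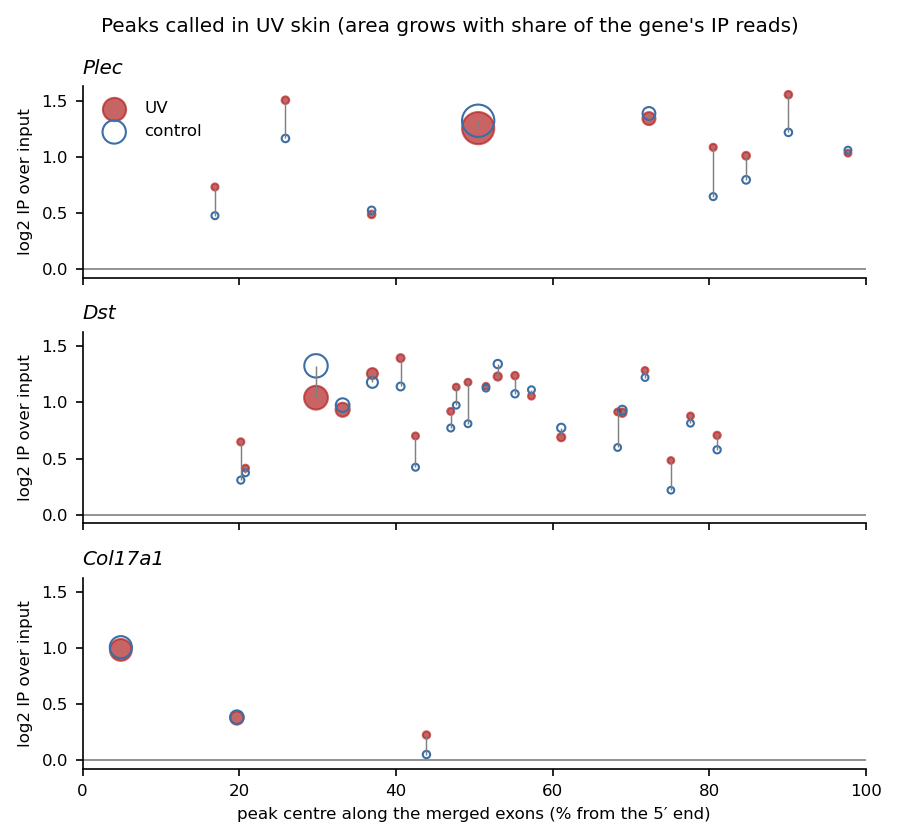
Log2 IP over input of the peaks called in UV skin for Plec, Dst and Col17a1, against the position of the peak's centre along the merged exons (% from the 5′ end). Filled circles are UV skin and open circles control skin (fitted values, n = 3 each), grey lines join the values of a peak, and circle area grows with the peak's share of the gene's IP reads. 1 large circle stands near the middle of Plec, at about a log2 value of 1.25, and 1 at about 29.8% along Dst, where UV lies below control.

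UV minus control in log2 IP over input, which takes out the change of transcript level, was not called for any of the 9 members by edgeR, at unadjusted p-values of 0.456 or more. Over all genes 3 were called (0.0120%), and 1109 of 25022 had an unadjusted p under 0.05. For Itgb4 the change was −0.14 on the log2 scale (SE 0.20; 95% confidence interval −0.56 to 0.29). For Lama5 it was 0.16 (−0.32 to 0.64), for Col17a1 −0.16 (−0.62 to 0.30), for Dst −0.10 (−0.39 to 0.20) and for Plec −0.05 (−0.30 to 0.20), each with its 95% confidence interval. These intervals come from the fit that leaves out the sharing of a sample between its IP and input library. With the sample as a block the intervals were narrower: the change of Col17a1 was −0.17 (SE 0.05; 95% confidence interval −0.28 to −0.06; unadjusted p = 0.00558, edgeR adjusted p = 0.153), and Lama5 and Itgb4 had unadjusted p-values of 0.0512 and 0.063 (edgeR adjusted p = 0.441 and 0.477). DESeq2 called 52 genes and the fit with samples as blocks 399 (1.59%), with 0 members among either. Per sample, UV and control did not overlap in 4 members, with Itgb4, Dst and Col17a1 lower and Lama5 higher in UV skin, where 16.9% of all genes tested did not overlap.

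Peak by peak, none of the 68 was called for a change by edgeR (smallest adjusted p = 0.540), and 3 had an unadjusted p under 0.05. Over all 41273 peaks 0 were called (0%), and 3356 had an unadjusted p under 0.05. The lowest unadjusted p, 0.00854, was at a Plec peak in the last exon, chr15:76174244-76174754, with a log2 change of 0.44. Of the 68 peaks 41 had a positive change, and the median log2 change was 0.042 over the 68 and 0.041 over all peaks. The 68 are not separate places, since every control peak of the members met a UV peak. In the authors' deposited table, 0.105% of all peaks had an FDR under 0.05, and the lowest FDR among the members' peaks was 0.952.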

How the data were processed

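The deposited table of raw read counts per gene was used as given; per the submitters' processing notes reads were aligned with STAR 2.5.3a to GRCm38, and the sources used here do not name the counter, strand use, duplicate handling or peak caller. Of counts from 1 to 20, 79.5% to 83.6% were even per library, as when each mate counts as a read. The authors' peak table holds counts per peak, and, per the file headers, the authors' log2 fold change, p-value and FDR. Their log2 values and the fit here correlated at 0.993 over 41235 peaks. Peak starts counted from 0: with 1 added, 1966 met an exon start, against at most 118 otherwise.

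Counts were tested with edgeR 4.0.16 (quasi-likelihood, TMM, filterByExpr) in R 4.3.3, with DESeq2 1.42.0 as an alternative. Expression used 6 input libraries, IP abundance 6 IP libraries, and enrichment and its change all 12 with 4 group means. Peaks used the gene table's library sizes. Benjamini-Hochberg adjustment ran over all features, at 0.05. The fits were checked on simulated data. IP and input libraries with 1 number correlated at 0.605 to 0.874 in their departures from the group means over 11931 genes, and at −0.704 to −0.164 with different numbers, so the sample block pairs them. UV and control numbers correlated at −0.259 to 0.136 and were not paired.

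All 9 members are named, up to 4 called genes of each other list, the nearest genes by likeness, each member's deepest peak and any peak past the threshold. The members and lists were chosen with earlier results of these data known, among them those of Itgb4, Krt15 and Hspg2. The gene ratios, the extra printed peaks and the list genes that were not called were chosen after their values were seen.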

Additional observations from a re-analysis of the deposited data

How the results depend on the processing

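Itgb4 was called higher in input under all 10 alternatives, with log2 changes of 0.92 to 1.15 and adjusted p-values up to 0.0439. The count of members called higher in input was 2 by DESeq2 and 2 without the filter on low counts (1 otherwise), and the count called lower was 1 by DESeq2 and 0 to 1 with 1 sample left out. In IP abundance 0 to 1 members were called higher with 1 sample left out. With the replicate block, 4 members were higher and 4 lower in IP than input in UV skin, and 4 were higher in control skin; 2 peaks were lower for the change. The block of UV and control by number, which do not pair, lowered the calls over all genes to 713 for expression (1404 without it) and changed no call of a member. With TMM over the peaks, 4 peaks were higher and 16 lower in UV skin and 1 and 20 in control skin; the deepest peaks turned negative for Itga6 (−0.39 and −0.50 in UV and control), Col17a1 (−0.23 and −0.19) and Col7a1 (−0.23 and −0.29), for Dst in UV (−0.17) and for Lamb3 in control (−0.11), by construction of that scaling. Calls over all genes ranged from 219 to 2620 for expression, 67 to 1426 for IP abundance and 0 to 399 for the change, the cause of which was not tested. What could be detected for the change depends on the block: the SE of Col17a1 was 0.21 without it and 0.05 with it.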
